A study of Mus musculus with 62 samples.

Results

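The transcripts described here are those of 10 genes of the myostatin, activin and bone morphogenetic protein (BMP) pathways, taken by symbol from the 47643 gene symbols of a mouse muscle RNA-seq table: Mstn, Fst, Fstl3, Fstl1, Acvr2b, Acvr2a, Acvr1b, Nog, Smad3 and Id1. The tissue was tibialis anterior, the muscle at the front of the shin, which is made mostly of fast fibres, and the mice were females aged 2 months. CAC mice had been given melanoma cells that cause cachexia, the wasting of muscle and fat in cancer, NCAC mice had been given melanoma cells that do not, and Con mice had a mock injection. Muscles were taken 2, 4, 6 and 8 weeks later, which makes 12 groups of 5 libraries each, except CAC at 8 weeks with 7, and 62 libraries in all. The sample labels give the strain as C57BL/6J and the series text as NCI Ath/nude, an athymic strain, so the host strain, and with it whether the hosts had T cells, is not settled. The extraction protocol in the labels speaks of 3 weeks after injection of LLC cells, which are no melanoma. This does not match the tumour and weeks given elsewhere in the labels, and the titles were followed. The labels call the libraries biological replicates and do not name the melanoma lines.

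Myostatin and the activins are secreted ligands that bind the type 2 receptors Acvr2b and Acvr2a, which then recruit a type 1 receptor such as Acvr1b, and the complex phosphorylates Smad2 and Smad3. In skeletal muscle this branch limits fibre size, and follistatin (Fst) and its relative Fstl3 bind these ligands and keep them from the receptors. BMPs signal through other type 1 receptors to Smad1, Smad5 and Smad9, a branch that supports muscle mass and turns on Id genes, and noggin (Nog) binds BMPs outside the cell and blocks them. Fstl1 is a more distant, secreted relative of follistatin that has been reported to bind BMPs.

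Values are the authors' TPM (a share of a fixed total, adjusted for gene length), so levels of different genes can be compared. The muscle markers Myh4, Acta1 and Ckm lay between 3290 and 42000 TPM in all 62 libraries. Transcripts of the mitochondrial genome made up 38.6% ± 3.39 of the total in CAC muscle at 6 weeks and 37.7% ± 2.43 at 8 weeks, against 47.9% ± 2.74 and 48.8% ± 7.07 in Con muscle (SD, n = 5, or 7 in CAC at 8 weeks). The median log2 change of all 11107 genes tested was 0.38 at 6 weeks and 0.46 at 8 weeks in CAC against Con, and 0.42 and 0.43 in CAC against NCAC. The changes of the 10 genes at 4, 6 and 8 weeks are therefore plotted as deposited and also after rescaling every library by its median-of-ratios size factor, which brings these medians to between 0.01 and 0.02. Changes are on the log2(TPM + 1) scale, SE is their standard error, and p is two-sided, from limma, adjusted by Benjamini-Hochberg over all genes tested, with a gene called under 0.05. In whole muscle, fewer cells of a type and less RNA per cell cannot be told apart.

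Nog, the BMP antagonist noggin, had the largest log2 change of the 10 genes in CAC muscle against both NCAC and Con muscle at 4, 6 and 8 weeks. The gene is a single exon of 1695 bases on the minus strand of chromosome 11 (GRCm38, chr11:89300638-89302332). In the 5 CAC libraries at 6 weeks Nog stood at 25.1, 16.4, 21.5, 12.2 and 16 TPM, against 4.92, 4.76, 3.54, 5.13 and 3.38 TPM in NCAC muscle and 4.73, 4.55, 3.98, 5.79 and 4.5 TPM in Con muscle. At 8 weeks the 7 CAC libraries ran between 7.34 and 29.6 TPM with a median of 18.8 TPM, against 2.86, 2.6, 2.32, 3.85 and 4.31 TPM in NCAC and 3.07, 3.55, 3.47, 3.92 and 3.44 TPM in Con muscle. At both weeks every CAC library lay above every NCAC and every Con library of that week. Of all genes, 44.3% and 38.0% lay wholly above Con at 6 and 8 weeks, and 43.1% and 40.1% wholly above NCAC. The lowest of these CAC libraries for Nog, replicate 1 at 8 weeks, was still above the highest of all 40 NCAC and Con libraries, 5.79 TPM. Nog was 3.87-fold higher in CAC than in Con muscle at 6 weeks (log2 change 1.72, SE 0.21, limma adjusted p = 5.71e-09) and 5.29-fold higher at 8 weeks (log2 change 2.01, SE 0.19, limma adjusted p = 2.61e-12). Against NCAC muscle it was 4.2-fold higher at 6 weeks (log2 change 1.82, SE 0.21, limma adjusted p = 1.03e-09) and 5.79-fold higher at 8 weeks (log2 change 2.13, SE 0.19, limma adjusted p = 3.64e-13). After rescaling, the log2 changes against Con were 1.32 at 6 weeks (limma adjusted p = 6.04e-06) and 1.55 at 8 weeks (limma adjusted p = 1.47e-08). Those against NCAC were 1.37 (limma adjusted p = 2.09e-06) and 1.70 (limma adjusted p = 1.38e-09), so the calls did not rest on the scale. Of the 11107 genes tested, 0.927% had a larger log2 change against Con than Nog at 6 weeks, and as many at 8 weeks.

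At 4 weeks the 5 CAC libraries held 5.79, 4.67, 4.65, 10.7 and 6.77 TPM of Nog, against 3.68, 3.64, 1.57, 3.83 and 2.86 TPM in NCAC muscle and 5.13, 2.86, 3.49, 3.05 and 2.99 TPM in Con muscle. They lay above all NCAC libraries, as held for 8.92% of all genes, and overlapped the highest Con library, replicate 1. Against NCAC, Nog was 2.09-fold higher and was called (log2 change 0.85, SE 0.21, limma adjusted p = 0.0106, and 0.71 with adjusted p = 0.0334 after rescaling), but the call was lost without CAC replicate 4 or NCAC replicate 3, with limma adjusted p up to 0.0867. Against Con, the 1.86-fold difference was not called (log2 change 0.71, SE 0.21, limma adjusted p = 0.0926, and 0.60 with adjusted p = 0.151 after rescaling), and without Con replicate 1 it was (adjusted p = 0.0492). At 2 weeks Nog averaged 3.78 ± 0.81 TPM in CAC, 3.46 ± 0.39 TPM in NCAC and 3.32 ± 0.68 TPM in Con muscle (SD, n = 5 each), and the groups overlapped. The change of the CAC against Con difference between 4 and 6 weeks was 1.01 (SE 0.30, limma adjusted p = 0.0607, and 0.72 with adjusted p = 0.441 after rescaling), short of the threshold. Ordered by mean, CAC at 8 and at 6 weeks came first with 18.5 ± 7.46 and 18.2 ± 5.08 TPM, then CAC at 4 weeks with 6.52 ± 2.51 TPM, and the other 9 groups followed between 4.71 and 3.12 TPM. The step of 11.7 TPM between CAC at 6 and at 4 weeks was the only gap between neighbouring groups, over all 10 genes, that exceeded the larger SD of the pair.

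**Figure D1:**
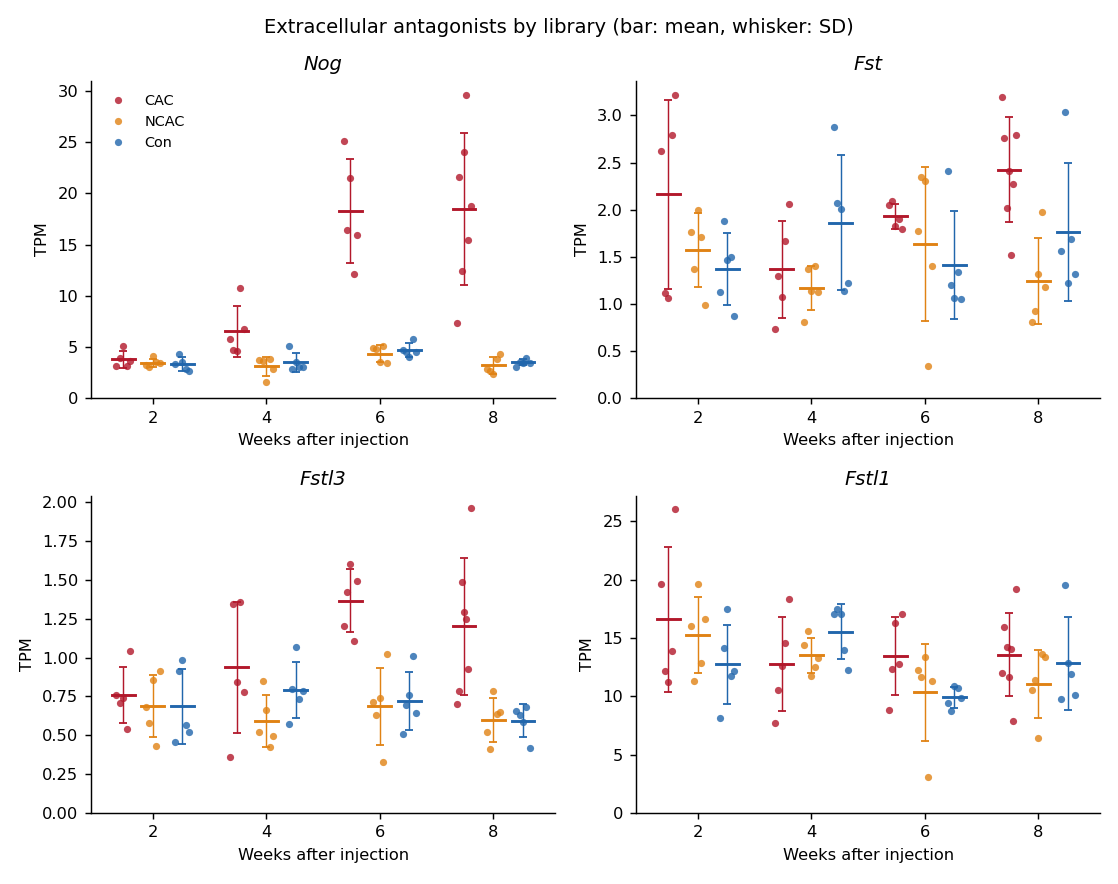
TPM of Nog, Fst, Fstl3 and Fstl1 in each library (points), with the group mean (bar) and SD (whisker), by week after injection, for CAC (red), NCAC (orange) and Con (blue) muscle. Nog points of CAC at 6 and 8 weeks, between 7.34 and 29.6 TPM, stand clear of the NCAC and Con points, while Fst and Fstl1 overlap between CAC and Con at every week.

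The follistatin family had smaller changes than Nog. On GRCm38, Fst lies at chr13:114452290-114458951 on the minus strand, and Fstl3 at chr10:79777272-79782630 and Fstl1 at chr16:37776873-37836514 on the plus strand. Fst, the high-affinity activin and myostatin antagonist, was a low transcript at 0.34 to 3.22 TPM over all libraries. At 8 weeks it ran between 1.52 and 3.19 TPM with a median of 2.41 TPM in CAC muscle, against 0.81, 0.93, 1.32, 1.97 and 1.18 TPM in NCAC and 1.56, 3.04, 1.22, 1.69 and 1.32 TPM in Con muscle. Of the 7 CAC libraries, 6 were above all NCAC libraries, and the CAC range overlapped that of Con, whose replicate 2 stood at 3.04 TPM. Against NCAC, Fst was 1.96-fold higher (log2 change 0.62, SE 0.18, limma adjusted p = 0.00258), a call that ended on rescaling (0.30, adjusted p = 0.105). Against Con it was not called at 6 weeks (0.31, SE 0.20, adjusted p = 0.169) or 8 weeks (0.33, SE 0.18, adjusted p = 0.102), and without Con replicate 2 the 8-week difference was called as deposited (adjusted p = 0.0229). The rescaled changes of Fst against Con were 0.04 and -0.01 at these weeks. The 5 CAC libraries at 6 weeks lay within 1.79 to 2.09 TPM of each other, an SD of 0.13 TPM, against 0.82 TPM in NCAC and 0.57 TPM in Con muscle.

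Fstl3, which binds activins and myostatin as follistatin does, averaged 0.81 TPM over all libraries and so missed the 1 TPM minimum, leaving 9 of the 10 genes among those tested. Its values come from a fit of all 23019 genes with any value above 0. At 6 weeks it stood at 1.2, 1.42, 1.6, 1.11 and 1.49 TPM in CAC muscle, against 0.71, 0.63, 0.74, 0.33 and 1.02 TPM in NCAC and 0.51, 0.69, 0.76, 1.01 and 0.64 TPM in Con muscle. All 5 CAC libraries were above all NCAC and Con libraries. Of the 11107 genes tested, 43.1% lay wholly above NCAC and 44.3% wholly above Con at this week. The log2 change against Con was 0.46 (SE 0.12, limma adjusted p = 0.00231) at 6 weeks and 0.44 (SE 0.11, limma adjusted p = 0.000994) at 8 weeks, when CAC libraries ran between 0.70 and 1.96 TPM against 0.42 to 0.68 TPM in Con. The fold of the means was 1.89 at 6 weeks and 2.02 at 8 weeks, more than these log2 changes show because 1 TPM is added to a low value, and neither was called after rescaling (0.24, adjusted p = 0.175, and 0.21, adjusted p = 0.164). A median of 40 estimated reads per library lies behind Fstl3, the fewest of the 10 genes. Fstl1 averaged 13.6 ± 3.57 TPM in CAC muscle at 8 weeks (SD, n = 7), against 11.1 ± 2.89 TPM in NCAC and 12.8 ± 3.98 TPM in Con muscle (SD, n = 5 each). By limma it was called in none of the 12 comparisons of 2 groups, as deposited or rescaled, and its log2 change from Con at 8 weeks was 0.08 as deposited and -0.40 after rescaling.

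Mstn and Acvr1b, a ligand and a type 1 receptor of the activin branch, were higher in CAC muscle at 6 and 8 weeks with a wide spread between libraries. As deposited both were called against Con at these weeks, where 60.7% and 69.4% of all genes rose. After rescaling only Acvr1b at 8 weeks was called against Con. Their upstream windows, the 250 bases before the RefSeq start (GRCm38.p6), are shown because they are of unlike base composition. Mstn, at chr1:53061640-53068079 on the plus strand, has the window chr1:53061390-53061639 with 38.4% G and C, and Acvr1b, at chr15:101174067-101213684 on the plus strand, has the window chr15:101173822-101174071 with 78.8%. Capitals mark the Smad box CAGAC, which occurs in sites bound by Smad3 and Smad4, and the E-box CANNTG, which muscle basic helix-loop-helix factors bind, on either strand.
Mstn: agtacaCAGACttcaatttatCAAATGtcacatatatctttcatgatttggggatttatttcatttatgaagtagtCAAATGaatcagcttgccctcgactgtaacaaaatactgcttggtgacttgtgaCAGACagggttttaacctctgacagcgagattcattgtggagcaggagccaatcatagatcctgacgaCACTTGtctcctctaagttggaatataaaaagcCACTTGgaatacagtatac
Acvr1b: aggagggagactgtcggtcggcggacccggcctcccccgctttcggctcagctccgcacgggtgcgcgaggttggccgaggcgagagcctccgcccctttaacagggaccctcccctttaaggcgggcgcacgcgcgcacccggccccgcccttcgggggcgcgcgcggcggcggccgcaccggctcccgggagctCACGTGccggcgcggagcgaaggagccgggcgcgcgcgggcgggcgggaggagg
The Mstn window holds 2 Smad boxes, at -244 and -120 from the start, and 4 E-boxes, at -229, -174, -52 and -19, with a TATAAA at -29, whereas the Acvr1b window holds 1 E-box, at -54, and no Smad box. Among the 32851 windows of this length in the RefSeq table, 42.2% hold a Smad box, 66.2% an E-box and 12.4% TATAAA. Neither window holds the BMP-responsive box GGCGCC (in 9.59% of windows), the STAT site TTCNNNGAA (in 7.02%), the glucocorticoid receptor half-site AGAACA (in 16.1%) or the FOXO site GTAAACA (in 3.17%). A match of letters describes the window and shows no binding.

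Mstn encodes myostatin, the muscle-made ligand that restrains muscle growth. At 6 weeks it stood at 42, 56.5, 35.5, 20.4 and 55.1 TPM in CAC muscle, against 27.1, 21.2, 16.6, 11 and 10.4 TPM in NCAC and 30.6, 16.3, 14.3, 19.3 and 17.7 TPM in Con muscle. At 8 weeks CAC libraries held 70.2, 41.4, 20.2, 34.4, 35.9, 36.3 and 51.3 TPM, against 19, 10.5, 18.2, 34.6 and 19.1 TPM in NCAC and 17.9, 19.6, 13.8, 23 and 18.9 TPM in Con muscle. The lowest CAC library at each week, replicate 4 at 6 weeks and replicate 3 at 8 weeks, lay within the NCAC and Con range, and all other CAC libraries at 6 and 8 weeks were above every Con library of their week. Against Con, Mstn was 2.13-fold higher at 6 weeks (log2 change 1.02, SE 0.33, limma adjusted p = 0.00641) and 2.22-fold higher at 8 weeks (log2 change 1.04, SE 0.30, limma adjusted p = 0.002). Against NCAC it was 2.43-fold higher at 6 weeks (log2 change 1.24, SE 0.33, limma adjusted p = 0.000998) and 2.04-fold higher at 8 weeks (log2 change 1.00, SE 0.30, limma adjusted p = 0.00304). Rescaling left a called difference only against NCAC at 6 weeks (0.77, adjusted p = 0.0345) and gave 0.60 (adjusted p = 0.112) and 0.54 (adjusted p = 0.101) against Con at 6 and 8 weeks and 0.53 (adjusted p = 0.11) against NCAC at 8 weeks.

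At 4 weeks the CAC libraries lay apart for Mstn, with 48.6 and 48.3 TPM in replicates 2 and 4 and 14.3, 19.3 and 15.9 TPM in replicates 1, 3 and 5. NCAC libraries ran between 7.27 and 23.5 TPM and Con libraries between 10.8 and 33.6 TPM, so replicates 2 and 4 were above both groups and the other CAC libraries were among them. Acvr1b split the same way, with 79.6 and 80.9 TPM in CAC replicates 2 and 4, against 31, 32.5 and 22 TPM in replicates 1, 3 and 5, and Id1 did so with 95.1 and 51.7 TPM against 5.53, 32.8 and 10.9 TPM. The sum of 8 macrophage markers split alike, at 76.1 and 87.9 TPM in CAC replicates 2 and 4, against 15.4, 33.1 and 39.6 TPM in replicates 1, 3 and 5. The sum of 6 satellite cell markers was also highest in replicates 2 and 4, at 61.8 and 37.5 TPM, against 23.9, 28.7 and 32 TPM in the others. The part of these cells in the split was not tested. Nog and Smad3 did not split this way, at 4.67 and 41 TPM in replicate 2 and 10.7 and 94.3 TPM in replicate 4. In replicates 1, 3 and 5, Nog stood at 5.79, 4.65 and 6.77 TPM and Smad3 at 43.6, 52.6 and 53.5 TPM. On principal component 1, the main axis of spread over all genes, replicates 2 and 4 scored 33.5 and 22.4. Replicates 1, 3 and 5 scored -13.7, -1.89 and 2.2, and the part of this shift in the split was not tested. With this spread, neither Mstn (log2 change 0.52, SE 0.33, limma adjusted p = 0.44 against Con) nor Acvr1b (0.38, SE 0.35, adjusted p = 0.588) was called at 4 weeks. The rescaled changes were 0.40 and 0.25. At 2 weeks Mstn averaged 20.4 ± 6.14 TPM in CAC, 24.5 ± 4.66 TPM in NCAC and 19.5 ± 6.40 TPM in Con muscle (SD, n = 5 each). Over the 12 groups the mean of Mstn was highest in CAC at 6, 8 and 4 weeks (41.9, 41.4 and 29.3 TPM) and lay between 24.5 and 16.3 TPM in the others, with no gap between neighbours above their SD.

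**Figure D2:**
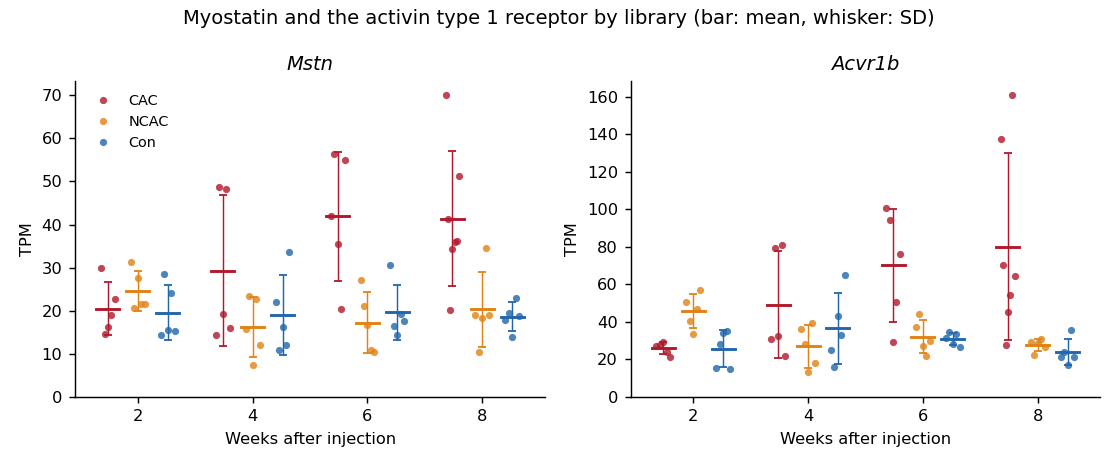
TPM of Mstn and Acvr1b in each library (points), with the group mean (bar) and SD (whisker), by week after injection, for CAC (red), NCAC (orange) and Con (blue) muscle. In both panels 2 of the 5 CAC points at 4 weeks stand at the level of most CAC points at 6 and 8 weeks, and the lowest CAC points at 6 and 8 weeks lie among the NCAC and Con points.

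Acvr1b, also called ALK4, is a type 1 receptor through which activins and myostatin reach Smad2 and Smad3. At 6 weeks it stood at 101, 94.3, 29.1, 50.6 and 76.4 TPM in CAC muscle, against 37.2, 44.3, 26.9, 22 and 29.7 TPM in NCAC and 31.1, 34.4, 28.2, 33.3 and 26.8 TPM in Con muscle. At 8 weeks CAC libraries held 138, 70.6, 27.6, 45.3, 54.6, 161 and 64.2 TPM, against 29.3, 22.2, 28.5, 30.9 and 26.8 TPM in NCAC and 21.5, 23.6, 17.1, 35.9 and 21.1 TPM in Con muscle. CAC replicate 3 at each week lay in the NCAC and Con range. Acvr1b was 2.28-fold higher in CAC than in Con muscle at 6 weeks (log2 change 1.04, SE 0.35, limma adjusted p = 0.00932) and 3.36-fold higher at 8 weeks (log2 change 1.52, SE 0.33, limma adjusted p = 5.57e-05). The 8-week call held after rescaling (1.01, adjusted p = 0.00488) and the 6-week call did not (0.61, adjusted p = 0.136). Against NCAC the log2 change was 1.02 at 6 weeks (SE 0.35, limma adjusted p = 0.00973, rescaled 0.54, adjusted p = 0.175) and 1.29 at 8 weeks (SE 0.33, limma adjusted p = 0.000491, rescaled 0.81, adjusted p = 0.0232). CAC replicate 1 at 6 weeks and CAC replicates 1 and 6 at 8 weeks have the 3 most extreme scores on principal component 1 over all genes, which carries 49.7% of the variance. Without them the change against Con was 0.88 (adjusted p = 0.023) at 6 weeks and 1.08 (adjusted p = 0.00256) at 8 weeks.

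At 2 weeks Acvr1b stood lower in CAC than in NCAC muscle, without passing the test across genes. Acvr1b stood at 27.1, 27.9, 29.2, 24.1 and 21.1 TPM in CAC muscle, against 50.6, 40.5, 33.8, 47.1 and 57.2 TPM in NCAC and 15.4, 28.4, 34.1, 35.2 and 15 TPM in Con muscle. All CAC libraries were below all NCAC libraries, and NCAC overlapped Con in 1 library. The log2 change was -0.79 in CAC against NCAC (SE 0.35, limma adjusted p = 0.661, two-sided exact permutation p = 0.00794) and 0.88 in NCAC against Con (SE 0.35, limma adjusted p = 1, exact permutation p = 0.0238). Rescaling gave -0.89 (limma adjusted p = 0.735) and 0.84 (adjusted p = 0.824). Both exact values are unadjusted, among tests of 10 genes in 12 comparisons, and 0.135% of all genes had CAC libraries wholly below NCAC libraries at 2 weeks.

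Of the type 2 receptors, which bind the ligand first, Acvr2a was called higher in CAC muscle at 6 and 8 weeks as deposited and Acvr2b was not called. On GRCm38, Acvr2a lies at chr2:48814109-48903269 and Acvr2b at chr9:119402118-119434995, both on the plus strand. Acvr2a stood at 12.7, 10.6, 16.2, 9.64 and 10 TPM in CAC muscle at 6 weeks, against 7.35, 9.09, 8.53, 3.58 and 7.75 TPM in NCAC and 13.2, 8.53, 7.41, 8.45 and 7.02 TPM in Con muscle. At 8 weeks it ran between 8.71 and 13.8 TPM with a median of 11.4 TPM in CAC, against 8.05, 7.46, 9.61, 8.58 and 7.51 TPM in NCAC and 7.54, 8.77, 6.89, 7.48 and 6.15 TPM in Con muscle. At 6 weeks the CAC libraries were above all NCAC libraries, as held for 43.1% of all genes, and overlapped Con through its replicate 1. At 8 weeks 1 CAC library overlapped Con. The log2 change against Con was 0.38 at 6 weeks (SE 0.17, limma adjusted p = 0.0477) and 0.55 at 8 weeks (SE 0.16, limma adjusted p = 0.00173), and against NCAC 0.66 (SE 0.17, limma adjusted p = 0.000741) and 0.40 (SE 0.16, limma adjusted p = 0.0196). The 6-week call against Con was lost on leaving out any of 6 of the 10 libraries (adjusted p up to 0.183), with 0.1 TPM added in place of 1 (0.0531) and without the 1 TPM minimum (0.0795). After rescaling none of the Acvr2a changes was called, with log2 changes of -0.018, 0.08, 0.23 and -0.041. Acvr2b, which has the higher affinity for myostatin, averaged 5.34 ± 1.07 TPM in CAC muscle at 8 weeks (SD, n = 7), against 4.72 ± 0.67 TPM in NCAC and 4.02 ± 1.32 TPM in Con muscle (SD, n = 5 each). It was called in none of the 12 comparisons of 2 groups, with log2 changes against Con of 0.14 at 6 weeks (SE 0.23, limma adjusted p = 0.602) and 0.36 at 8 weeks (SE 0.21, limma adjusted p = 0.114, and 0.0419 without Con replicate 2), and of -0.21 and -0.06 after rescaling. On the TPM scale Acvr1b was the most abundant of the 3 receptors, with a median of 31.1 TPM over all libraries, against 8.49 TPM for Acvr2a and 4.51 TPM for Acvr2b. Acvr2a lies on the opposite strand to Orc4, which it overlaps and which averaged 4.28 TPM, and how reads were assigned by strand is not given in the sources used here.

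Smad3, the factor that the activin branch activates, was the most abundant transcript of the 10, with a median of 47.1 TPM over all libraries (chr9:63646767-63757994 on the minus strand). At 6 weeks it stood at 64.5, 77.1, 87.6, 49 and 72.1 TPM in CAC muscle, against 54.1, 50.6, 48.6, 29.3 and 36.9 TPM in NCAC and 43.9, 35.8, 38.5, 52.3 and 43.7 TPM in Con muscle. All CAC libraries but replicate 4 were above both other groups. At 8 weeks CAC libraries spread from 21.4 TPM in replicate 1 to 143 TPM in replicate 5, around a median of 60.7 TPM, against 47, 47.4, 30.5, 48.3 and 46.2 TPM in NCAC and 41.1, 51.3, 40.8, 47.2 and 30.2 TPM in Con muscle. The lowest CAC library was below every NCAC and Con library of that week and 4 of the 7 were above them all. The log2 change against Con was 0.68 at 6 weeks (SE 0.25, limma adjusted p = 0.0143) and 0.51 at 8 weeks (SE 0.23, limma adjusted p = 0.0403). The 8-week call was lost on leaving out any of 7 single libraries (adjusted p up to 0.191), while without the 3 libraries of extreme score named above, among them the lowest CAC library, the log2 change was 0.85 (adjusted p = 0.000391). Against NCAC the log2 change was 0.67 at 6 weeks (SE 0.25, limma adjusted p = 0.0145, rescaled 0.19) and 0.45 at 8 weeks (SE 0.23, limma adjusted p = 0.0719, rescaled -0.03). Rescaling the change against Con gave 0.25 (adjusted p = 0.42) at 6 weeks and -0.00052 (adjusted p = 0.998) at 8 weeks.

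Id1, a direct BMP target that encodes an inhibitor of helix-loop-helix factors, varied widely between libraries (chr2:152736251-152737410 on the plus strand). At 8 weeks the CAC libraries held 29.8, 168, 19.8, 61.9, 40.4, 28.2 and 128 TPM, against 31.3, 11.2, 15.3, 8.78 and 37.4 TPM in NCAC and 25.2, 10.7, 32.5, 37 and 20.1 TPM in Con muscle. Replicates 2, 4, 5 and 7 were above all NCAC and Con libraries, and the other 3 were among them. Id1 was 2.71-fold higher in CAC than in Con muscle (log2 change 1.11, SE 0.47, limma adjusted p = 0.0311) and 3.27-fold higher than in NCAC muscle (log2 change 1.46, SE 0.47, limma adjusted p = 0.00527). The call against Con was lost without CAC replicate 2 or 7 or Con replicate 2 or 5 (adjusted p up to 0.117), and neither was called after rescaling (0.61, adjusted p = 0.293, and 0.99, adjusted p = 0.0773). At 6 weeks Id1 ran between 23.2 and 42.3 TPM in CAC, between 9.81 and 38.7 TPM in NCAC and between 12.2 and 36.6 TPM in Con muscle and was not called (log2 change against Con 0.34, SE 0.51, limma adjusted p = 0.572, rescaled -0.08).

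**Figure D3:**
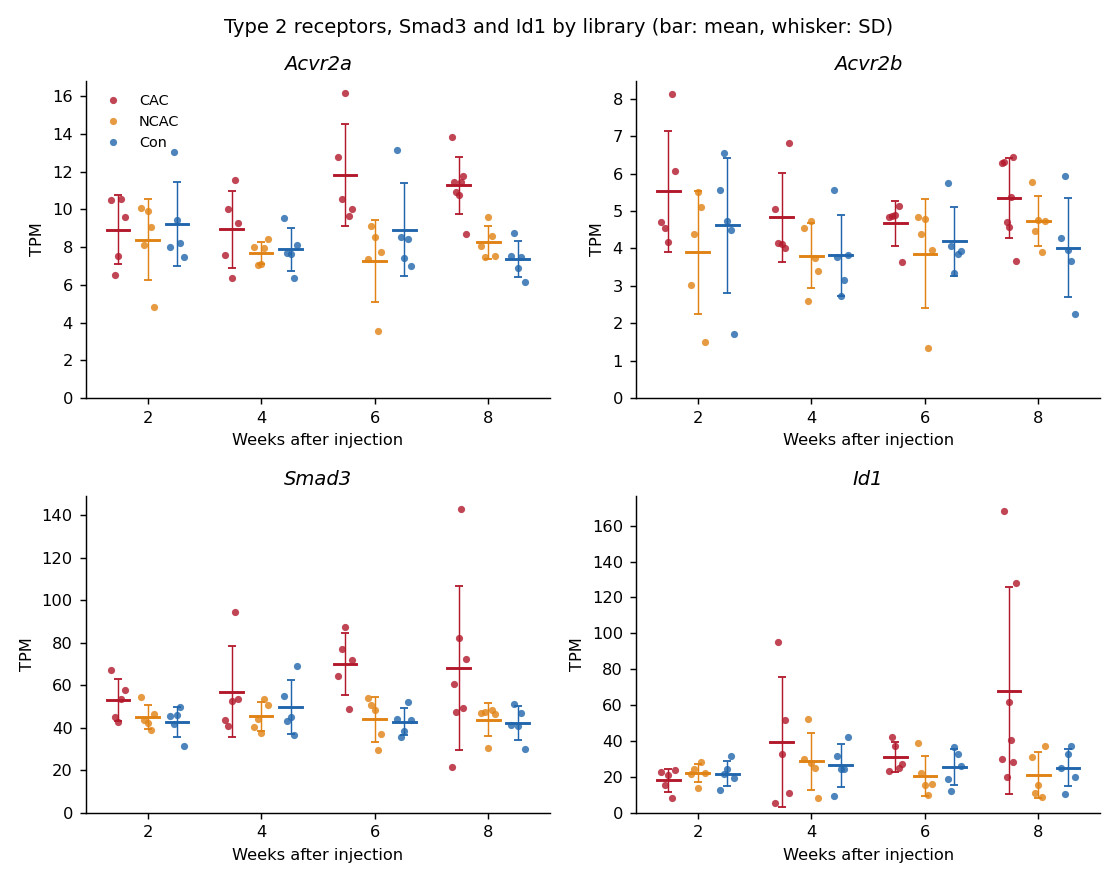
TPM of Acvr2a, Acvr2b, Smad3 and Id1 in each library (points), with the group mean (bar) and SD (whisker), by week after injection, for CAC (red), NCAC (orange) and Con (blue) muscle. At 8 weeks the 7 CAC points spread between 21.4 and 143 TPM for Smad3 and between 19.8 and 168 TPM for Id1, wider than the NCAC and Con points.

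The CAC libraries at 8 weeks did not rank alike for the different genes. Replicate 1 had the highest Mstn, at 70.2 TPM, and the second highest Acvr1b, at 138 TPM, but the lowest Nog, at 7.34 TPM, and the lowest Smad3, at 21.4 TPM. Replicate 5 had the highest Nog, at 29.6 TPM, and the highest Smad3, at 143 TPM, while its Mstn of 35.9 TPM was below the group mean of 41.4 TPM. Id1 was highest in replicates 2 and 7, in which Acvr1b stood at 70.6 and 64.2 TPM. Replicate 3 was lowest for Mstn, Acvr1b and Id1. Its erythroid markers summed to 14740 TPM, the highest of the group, which began at 147 TPM, and the part of this in its other values was not tested.

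Counted together, 0 of the 9 tested genes were called in CAC against Con at 2 weeks and 0 at 4 weeks by limma, where 0.0540% and 0.936% of all genes were called. At an unadjusted p under 0.05 there was 0 at 2 weeks and 1, Nog, at 4 weeks, beside 954 and 1575 of all 11107 genes tested. The fit of all genes above 0 also called 0 of the 10 genes at these weeks. At 6 weeks 5 of 9 rose (Mstn, Acvr2a, Acvr1b, Nog and Smad3) and at 8 weeks 6 of 9 (these and Id1), and 0 fell. At 6 weeks Acvr2a lost its call on leaving out any of 6 single libraries. Of all 11107 genes tested, 60.7% rose at 6 weeks and 69.4% at 8 weeks, so these counts are no more than the background. After rescaling 1 of 9 rose at 6 weeks (Nog) and 2 of 9 at 8 weeks (Nog and Acvr1b), where 16.9% and 24.9% of all genes rose and 18.1% and 24.2% fell. In CAC against NCAC the counts were 0 of 9 at 2 weeks, 1 (Nog) at 4 weeks, 5 at 6 weeks and 6 at 8 weeks, beside 0.0630%, 4.68%, 64.2% and 67.0% of all genes that rose. At 2 weeks 2 of 9 had an unadjusted p under 0.05 by limma, beside 778 of all 11107 genes tested. These were Acvr2b, which was higher (log2 change 0.46), and Acvr1b, which was lower (-0.79). After rescaling, the genes called higher in CAC than in NCAC were 1 at 4 weeks, 2 at 6 weeks and 2 at 8 weeks. Of all genes, 2.80%, 20.8% and 25.3% then rose. Both sets of comparisons share the CAC libraries. Only Nog of the 9 had CAC libraries wholly above the Con libraries at 6 and at 8 weeks, where 44.3% and 38.0% of all genes did. Against NCAC this held for Nog at 4 weeks, for Nog and Acvr2a at 6 weeks and for Nog at 8 weeks, where 8.92%, 43.1% and 40.1% of all genes did. Fstl3, which is not among the 9, also lay wholly above Con at 6 and 8 weeks and wholly above NCAC at 6 weeks.

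**Figure D4:**
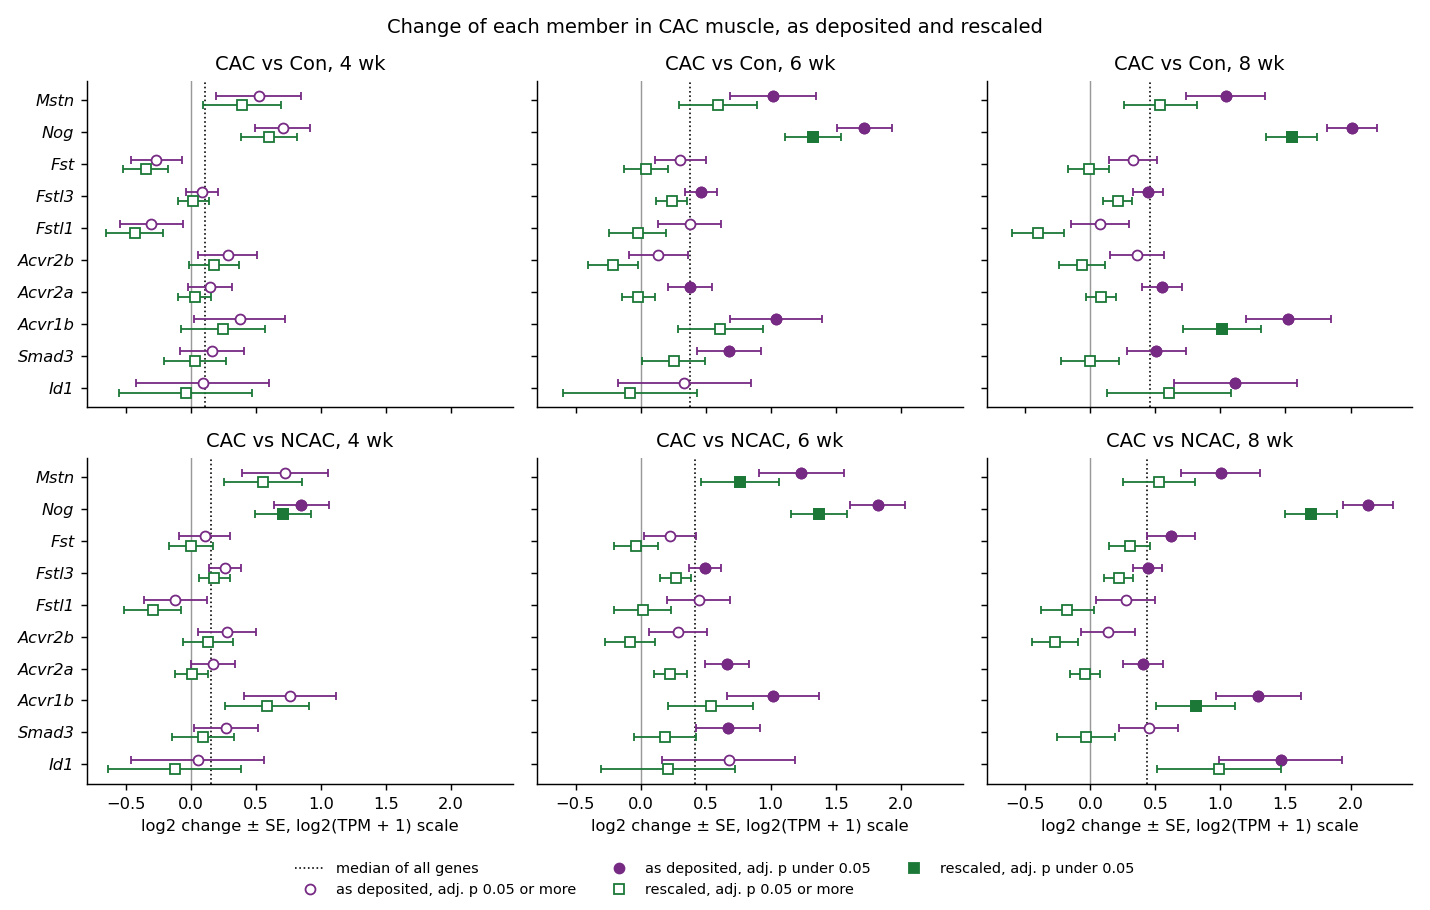
The log2 change of each of the 10 genes (log2(TPM + 1) scale, with SE) in CAC against Con (upper row) and CAC against NCAC (lower row) at 4, 6 and 8 weeks, as deposited (circles) and rescaled by size factors (squares), filled where called by limma. Dotted lines give the median of all genes, 0.38 and 0.46 against Con at 6 and 8 weeks, and Nog lies far to its right at both weeks.

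NCAC muscle was set against Con muscle to see the genes under a melanoma that causes no cachexia. By limma 0 of the 9 tested genes were called at 2, 4, 6 or 8 weeks, or on the mean of the 4 weeks, where 0.162%, 0%, 0%, 0.00900% and 0% of all genes were called. At an unadjusted p under 0.05 there was 1 at 2 weeks, Acvr1b, and 0 at the other weeks and on the mean. Of all 11107 genes tested, 281, 143, 118 and 166 passed this at 2, 4, 6 and 8 weeks, and 232 on the mean. The mean log2 difference of NCAC and Con over the 4 weeks was -0.08 for Nog with a 95% interval of -0.29 to 0.13, -0.01 for Mstn with -0.34 to 0.32, and 0.01 for Smad3 with -0.24 to 0.26. For Id1 the interval was -0.67 to 0.36, so a difference of that size cannot be told from none. NCAC replicate 4 at 6 weeks had 61.1% mitochondrial transcripts, the highest share of its group, and the lowest Fst, Fstl3, Fstl1, Acvr2b, Acvr2a, Acvr1b, Smad3 and Id1 of its group, but its highest Nog, at 5.13 TPM against 3.38 to 4.92 TPM. Mock muscle at 8 weeks against 2 weeks gave 0 calls among the 9 genes by limma, where 0.270% of all genes were called. There, 0 of 9 had an unadjusted p under 0.05, beside 347 of all 11107 genes.

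Tests of change between weeks gave 0 called genes of 9 for each step (CAC against Con at 4 minus 2, 6 minus 4, and 8 minus 6 weeks). Of all genes, 0, 0.882% and 0 were called. At an unadjusted p under 0.05 by limma there were 1, 2 and 0 of 9, beside 289, 3004 and 375 of all 11107 genes tested. From 4 to 6 weeks the largest was that of Nog, given above. From 6 to 8 weeks no difference was detectable, with Nog at 0.29 (SE 0.28), Mstn at 0.02 (SE 0.45) and Acvr1b at 0.48 (SE 0.48), all with limma adjusted p = 0.998. For Fst the change of the CAC against Con difference between 2 and 4 weeks was -0.63 (SE 0.28, limma adjusted p = 1).

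Of the genes on 8 lists of the wider pathway, 64 were tested, 55 of them beside the 9 above. A few of those tested stand on both the list of Smads and their regulators and the target list. In CAC against Con at 8 weeks, 35 of these 55 rose and 4 fell, with a median log2 change of 0.58 beside 0.46 over all genes, and 69.4% of all genes rose and 5.09% fell. After rescaling, 22 rose and 15 fell, with a median of 0.14 beside 0.02 over all genes, of which 24.9% rose and 24.2% fell. At 6 weeks 30 rose and 2 fell (12 and 14 after rescaling), beside 60.7% and 3.26% of all genes (16.9% and 18.1% after rescaling). At 4 weeks 2 rose, Bmper and Nedd4l, and 0 fell, beside 0.891% and 0.0450% of all genes. Both were also called after rescaling (Bmper 0.49, limma adjusted p = 0.0275, and Nedd4l 0.64, limma adjusted p = 0.00532).

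Of the other extracellular antagonists, 6 of 8 rose at 8 weeks and 0 fell (5 and 1 after rescaling), where 69.4% of all genes rose and 5.09% fell (24.9% and 24.2% after rescaling). Nbl1, a BMP antagonist of the DAN family, averaged 21.6 ± 4.95 TPM in CAC and 8.13 ± 1.69 TPM in Con muscle, a log2 change of 1.29 (limma adjusted p = 9.56e-09, rescaled 0.81). Bmper, a secreted BMP-binding protein, averaged 2.70 ± 0.31 TPM in CAC and 0.81 ± 0.25 TPM in Con muscle (log2 change 1.04, limma adjusted p = 1.58e-10, rescaled 0.71). Chrd, or chordin, which blocks BMPs as noggin does, averaged 1.63 ± 0.31 TPM in CAC and 0.85 ± 0.19 TPM in Con muscle (log2 change 0.51, limma adjusted p = 8.04e-06, rescaled 0.22). Ltbp1, which tethers latent TGF-beta in the matrix, rose with a log2 change of 0.52 (limma adjusted p = 3.63e-07, rescaled 0.20). All 4 also rose after rescaling. At 6 weeks 6 of the 8 rose and 0 fell (4 and 0 after rescaling), where 60.7% of all genes rose (16.9% after rescaling).

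Among the other ligands, 2 of 9 rose and 3 fell at 8 weeks, and 1 and 5 after rescaling, beside 69.4% and 5.09% of all genes as deposited and 24.9% and 24.2% rescaled. Bmp4 rose to 7.43 ± 1.09 TPM in CAC, against 3.58 ± 0.76 TPM in Con muscle (log2 change 0.89, limma adjusted p = 2.18e-06, rescaled 0.44). Inha, the alpha subunit that turns activin into the antagonist inhibin, fell to 6.29 ± 2.04 TPM in CAC, against 18.5 ± 7.06 TPM in Con muscle (log2 change -1.36, limma adjusted p = 7.84e-05, rescaled -1.80). Tgfb2, a ligand of the Tgfbr2 receptor, fell to 4.19 ± 2.83 TPM in CAC, against 7.66 ± 2.04 TPM in Con muscle (log2 change -0.89, limma adjusted p = 0.00133, rescaled -1.27). Gdf10, a BMP-like ligand, rose as deposited (log2 change 0.63, limma adjusted p = 0.00213) and was not called after rescaling (0.27, adjusted p = 0.19). Furin, a protease that cleaves ligand precursors, averaged 17.6 ± 7.70 TPM in CAC and 7.80 ± 2.20 TPM in Con muscle (log2 change 1.02, limma adjusted p = 1.19e-05, rescaled 0.54). Bmp1, a metalloprotease that frees ligands from their propeptides and from chordin, had a log2 change of 0.61 (limma adjusted p = 0.00232) and of 0.14 after rescaling, where it was not called.

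Of the other receptors and co-receptors, 6 of 12 rose at 8 weeks and 0 fell, beside 69.4% and 5.09% of all genes. By kind these were 1 of 2 type 2 receptors, 3 of 5 type 1 receptors and 2 of 5 co-receptors. The median log2 change of the co-receptors was 0.16 as deposited and -0.32 after rescaling. After rescaling the same counts rose, and 1 type 2 receptor (Bmpr2), 2 type 1 receptors (Acvr1 and Bmpr1a) and 2 co-receptors (Rgmb and Hfe2) fell, with log2 changes between -0.29 and -0.42. Of all genes 24.9% then rose and 24.2% fell. Tgfbr3, the co-receptor betaglycan, which presents TGF-beta and inhibin, averaged 14.2 ± 3.76 TPM in CAC and 3.68 ± 0.69 TPM in Con muscle at 8 weeks (log2 change 1.67, limma adjusted p = 5.58e-12, rescaled 1.21). Tgfbr2, the type 2 receptor of TGF-beta, averaged 32.4 ± 10.3 TPM in CAC and 10.3 ± 1.71 TPM in Con muscle (log2 change 1.52, limma adjusted p = 1.92e-10, rescaled 1.02). Eng, or endoglin, a co-receptor of endothelial cells, averaged 36.5 ± 7.19 TPM in CAC and 18.5 ± 4.27 TPM in Con muscle (log2 change 0.95, limma adjusted p = 3.81e-07, rescaled 0.45). The type 1 receptors Tgfbr1, Acvrl1 and Bmpr1b rose as well, with log2 changes of 1.07, 0.93 and 0.91 (limma adjusted p between 5.52e-08 and 3.89e-06), and all 3 also rose after rescaling. Of the Smads and their regulators 13 of 16 rose and 1 fell at 8 weeks, and 6 and 2 after rescaling, beside the same shares of all genes. Smad1 and Smad5, which carry the BMP signal, rose with log2 changes of 1.07 and 0.95, and 0.64 and 0.46 after rescaling, and Nedd4l, a ubiquitin ligase that acts on Smad2 and Smad3, with 0.95 and 0.51, while Smad2, the partner of Smad3 in the activin branch, had 0.58 (limma adjusted p = 8.02e-07) and 0.13 after rescaling (adjusted p = 0.0758).

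Of 12 other Smad target genes 8 rose and 1 fell at 8 weeks, and 3 and 3 after rescaling, close to the shares of all genes (69.4% and 5.09%, and 24.9% and 24.2% after rescaling). Atoh8, a helix-loop-helix factor of the BMP branch, averaged 19.2 ± 8.52 TPM in CAC and 4.01 ± 0.49 TPM in Con muscle (log2 change 1.88, limma adjusted p = 9.54e-07, rescaled 1.41). Ctgf, a matrix-associated growth factor induced by TGF-beta, averaged 35.2 ± 31.5 TPM in CAC and 5.51 ± 1.43 TPM in Con muscle (log2 change 2.03, limma adjusted p = 0.000125, rescaled 1.55). For Ctgf the SD in CAC muscle is about as large as the mean. Fbxo30, a ubiquitin ligase of atrophying muscle, averaged 15.0 ± 16.1 TPM in CAC and 5.26 ± 0.06 TPM in Con muscle and was called as deposited (log2 change 0.85, limma adjusted p = 0.0035) but not after rescaling (0.39, adjusted p = 0.17).

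**Figure D5:**
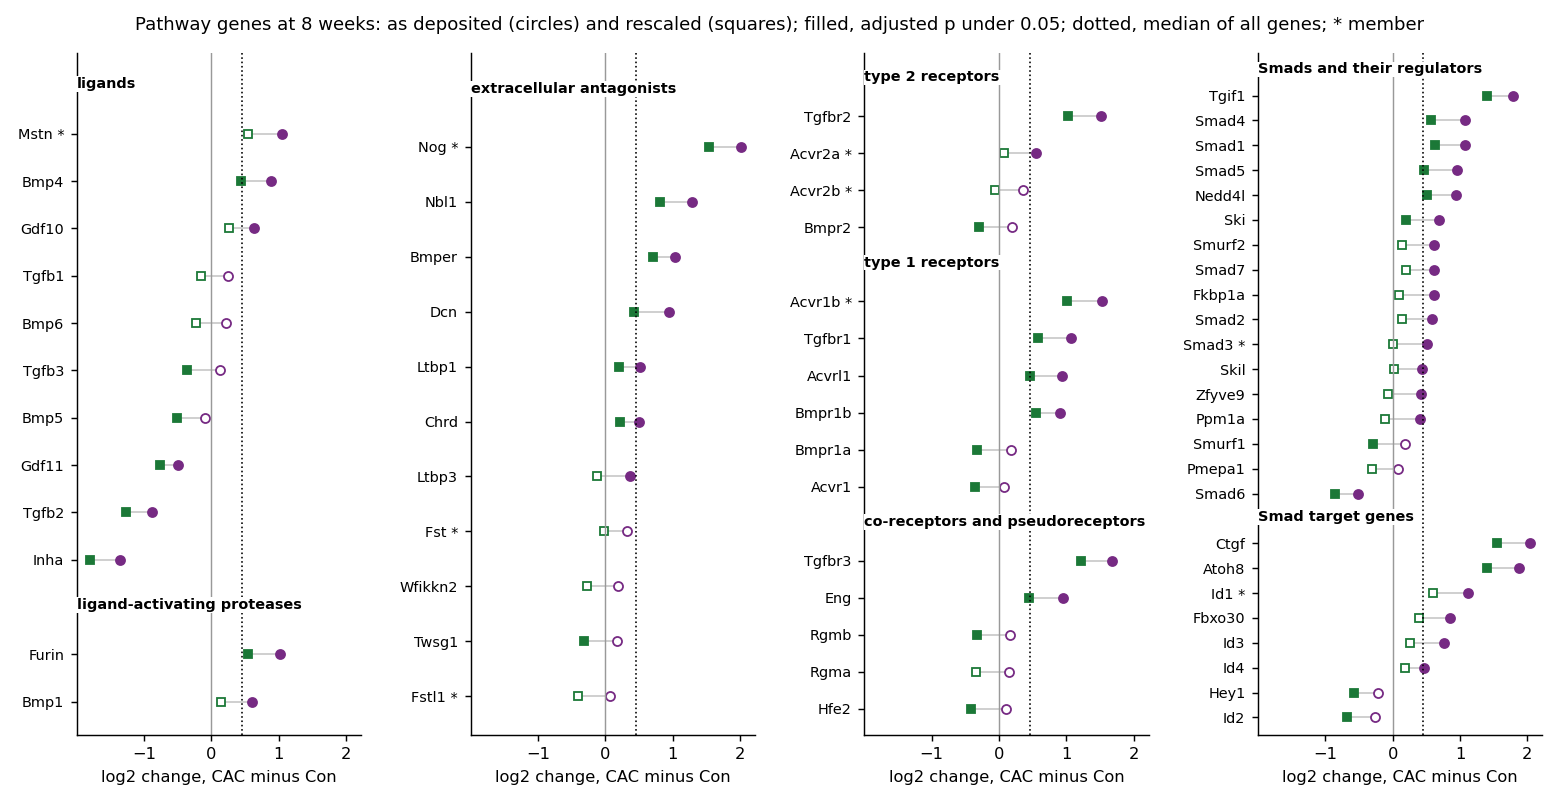
The log2 change (log2(TPM + 1) scale) in CAC against Con muscle at 8 weeks of the tested pathway genes, with 1 left out, by role, as deposited (circles) and rescaled by size factors (squares), filled where called by limma, with an asterisk on the genes described one by one. Nog, at 2.01, and Ctgf, at 2.03, lie farthest right, and the dotted line is the median of all genes at 0.46.

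Summed markers of several other cell types also stood higher in CAC muscle, and those of some did not. The sum of 8 macrophage markers ran between 61.2 and 161 TPM in CAC at 8 weeks, against 13.6 to 32.8 TPM in NCAC and 21.4 to 54.5 TPM in Con muscle. The sum of 6 endothelial markers ran between 152 and 213 TPM in CAC, against 94.8 to 133 TPM in NCAC and 89.4 to 141 TPM in Con. The sum of 8 fibroblast markers ran between 185 and 261 TPM in CAC, against 86.6 to 215 TPM in NCAC and 129 to 223 TPM in Con. The sum of 6 satellite cell markers ran between 31.6 and 97.8 TPM in CAC, against 24.6 to 29.1 TPM in NCAC and 16.6 to 35.0 TPM in Con muscle. The sum of 5 adipocyte markers ran between 63.7 and 242 TPM in CAC, against 18.7 to 52.9 TPM in NCAC and 12.4 to 59.7 TPM in Con muscle. The sum of 5 neutrophil markers ran between 11.7 and 54.7 TPM in CAC, against 3.27 to 10.2 TPM in NCAC and 4.79 to 8.03 TPM in Con muscle. The sum of 6 mural cell markers ran between 341 and 436 TPM in CAC, against 238 to 265 TPM in NCAC and 199 to 296 TPM in Con muscle. The macrophage, endothelial, adipocyte, neutrophil and mural sums of CAC muscle lay wholly above both other groups at 8 weeks. Of all genes, 38.0% then lay wholly above Con and 40.1% wholly above NCAC. All these sums are as deposited and were not rescaled, and the median log2 change of all genes against Con was then 0.46. The sum of 5 tendon markers went the other way in the mean, with means of 46.9 TPM in CAC, 55.2 TPM in NCAC and 69.7 TPM in Con muscle, and the groups overlapped. The sum of 5 Schwann cell markers overlapped between the groups as well. At 6 weeks the macrophage sum ran between 58.3 and 91.7 TPM in CAC, against 19.9 to 25.9 TPM in NCAC and 14.2 to 25.6 TPM in Con muscle. The adipocyte sum then ran between 87.6 and 474 TPM in CAC, against 4.05 to 128 TPM in NCAC and 18.6 to 54.9 TPM in Con muscle. At 4 weeks the macrophage sum overlapped, at 15.4 to 87.9 TPM in CAC, 18.4 to 28.9 TPM in NCAC and 16.6 to 42.9 TPM in Con muscle. No marker of these lists averaged under 0.1 TPM. The cells' part in the changes above was not tested. Of the 6 melanocyte markers, Mlana, Pmel, Tyr, Dct and Tyrp1 averaged under 0.1 TPM over all libraries, which leaves Mitf. At 8 weeks the sum of the 6 ran between 4.72 and 13.8 TPM in CAC, against 4.65 to 5.33 TPM in NCAC and 4.15 to 4.63 TPM in Con muscle.

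By likeness of the 12 group means of log2(TPM + 1), searched over the 6902 genes that averaged 5 TPM or more, Nog was most like Fbxo31 (r = 0.992), Slc3a2 (r = 0.991) and Fxr2 (r = 0.99). Mstn was most like Rbl2 (r = 0.985), Dcaf8 (r = 0.98) and Tex10 (r = 0.979), and Acvr1b was most like Tsc22d3 (r = 0.978), Slc7a8 (r = 0.977) and Csnk1e (r = 0.976). Acvr2a was most like Col4a3bp (r = 0.965), Podxl (r = 0.963) and Aldh6a1 (r = 0.961). These correlations are descriptions over 12 means that share libraries and the scale shift of CAC muscle at 6 and 8 weeks.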

How the data were processed

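Polyadenylated RNA of whole tibialis anterior was sequenced as stranded libraries on an Illumina NovaSeq, per the labels' protocols. Values for every gene symbol and library were deposited as TPM in a single table. Reads were placed on mm10, per the submitters' processing notes. Neither aligner nor counter nor annotation is given in the sources used here. The TPM of every library sum to 1000000. Steps of the lowest values gave an estimated depth per library of 46.3 to 54.1 (median 48.7) times 1000000 reads, with 82.3% to 84.9% of low values whole within 0.05 reads, so no count test was run. For the 10 genes this puts between 21 reads (Fstl3) and 15800 reads (Smad3) behind a value.

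Groups came from the sample titles, and all 62 libraries entered 1 linear model on log2(TPM + 1) with a mean per group (limma 3.58.1, R 4.3.3, trended empirical Bayes, 50 residual degrees of freedom). The 11107 genes that averaged at least 1 TPM were tested, and p-values were adjusted by Benjamini-Hochberg within each of 17 comparisons. P-values measure the spread between these libraries, which the labels call biological replicates. An exact two-sided permutation test was run per gene in the 12 comparisons of 2 groups, where the smallest possible p is 0.00794 for 5 against 5 and 0.00126 for 7 against 5. The fits were repeated with 0.1 TPM added in place of 1, with all genes above 0, on values rescaled by size factors (0.613 to 1.47), on the compared groups alone, with a replicate block, with group weights, and with libraries left out. Python 3.11.15 with pandas 2.3.3, numpy 2.4.6 and matplotlib 3.10.9 did the rest. No library pair held identical values.

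The 10 genes and all lists were chosen with earlier results of these data known. Beside the 10 genes, the text names at most 4 genes per pathway list, those called with the smallest adjusted p in CAC against Con at 8 weeks, and the few called at 4 weeks. Of these, 1 gene is not reported here. For likeness, 3 genes were named for each of the 4 members called in most comparisons. Gene positions are from GENCODE M21 (GRCm38) and upstream windows from RefSeq (GRCm38.p6), which held 7 of the 10 genes.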

Additional observations from a re-analysis of the deposited data

Results flagged for a closer look

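In 9 of the 120 gene and group combinations, 1 library lay apart from the rest of its group by Dixon's criterion, which chance alone meets in about 1 of 20 groups. Fst stood at 2.41 TPM in Con replicate 1 at 6 weeks, where the others ran between 1.06 and 1.34 TPM, and at 3.04 TPM in Con replicate 2 at 8 weeks, against 1.22 to 1.69 TPM in the others. In the same Con replicate 1 at 6 weeks, Acvr2a stood at 13.2 TPM, with the others between 7.02 and 8.53 TPM. Nog stood at 5.13 TPM in Con replicate 1 at 4 weeks, where the others ran between 2.86 and 3.49 TPM, and this library keeps CAC and Con muscle from separating at that week. NCAC replicate 4 at 6 weeks was low for Fstl1, at 3.05 TPM against 11.3 to 13.4 TPM, and for Acvr2b, at 1.33 TPM against 3.97 to 4.84 TPM. That library held 61.1% mitochondrial transcripts, and its part in these values was not tested. Acvr2b was also low in CAC replicate 5 at 6 weeks, at 3.63 TPM against 4.83 to 5.14 TPM. Smad3 was high in CAC replicate 4 at 4 weeks, at 94.3 TPM against 41 to 53.5 TPM, and low in NCAC replicate 3 at 8 weeks, at 30.5 TPM against 46.2 to 48.3 TPM.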

How the results depend on the processing

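The scale decided most calls. Rescaling by size factors left 1 called gene of 9 in CAC against Con at 6 weeks (5 as deposited) and 2 at 8 weeks (6 as deposited). Of all genes, 16.9% and 24.9% then rose (60.7% and 69.4% as deposited). In CAC against NCAC it left 2 at 6 weeks (5 as deposited) and 2 at 8 weeks (6 as deposited). There, 20.8% and 25.3% of all genes rose (64.2% and 67.0% as deposited). Among the changes called as deposited, rescaling turned the sign of Acvr2a against Con at 6 weeks (-0.018) and against NCAC at 8 weeks (-0.041). It did the same for Smad3 against Con at 8 weeks (-0.00052). Several uncalled changes also turned sign, among them those of Fstl1, Acvr2b and Fst against Con at 8 weeks, given above. Fitting only the groups compared left 0 called genes in CAC against NCAC at 4 weeks. In CAC against Con at 4 weeks 1 gene, Nog, was called without the 3 libraries of extreme score and also with group weights, which called 1 gene, Nog again, in the change between 4 and 6 weeks. The cause was not tested. Leaving out single libraries gave 0 to 1 called genes in CAC against Con and in CAC against NCAC at 4 weeks, and 0 to 1 in the change between 4 and 6 weeks (called without CAC replicate 4 at 4 weeks or CAC replicate 2 or 5 at 6 weeks). In CAC against Con the counts were 4 to 5 at 6 weeks and 4 to 7 at 8 weeks, in CAC against NCAC 4 to 6 and 6 to 7, and 0 in all other comparisons.

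No single library ended a call of Mstn, Acvr1b or Nog at 6 or 8 weeks. Acvr2a against Con at 6 weeks lost its call on leaving out any of 6 single libraries (limma adjusted p up to 0.183), without the 3 libraries of extreme score (0.0965), with a pseudocount of 0.1 (0.0531) and without the filter (0.0795), and against NCAC at 8 weeks it did so without those 3 libraries (0.08). Smad3 and Id1 against Con at 8 weeks lost theirs without the filter, with only the groups compared and with group weights. By the exact permutation test p was 0.227 for this Smad3 difference, 0.0884 for Id1 and 0.0952 for Acvr2a at 6 weeks. Fstl1 against NCAC at 6 weeks was called without CAC replicate 1 or NCAC replicate 3, Fstl3 against NCAC at 4 weeks without CAC replicate 1, and Smad3 against NCAC was lost at 6 weeks without NCAC replicate 4 and gained at 8 weeks without CAC replicate 1. Leaving out the 3 Con libraries with more than 100 TPM of albumin, a liver transcript, ended or made no call among the 10 genes. These are Con replicates 1 and 2 at 2 weeks and replicate 3 at 4 weeks. No called comparison held any of them, so they entered the calls only through the shared estimate of the spread. The check could therefore hardly end a call.

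Same-numbered libraries did not deviate together, with correlations between -0.332 and 0.332 and no comparison in which every pair was over 0.1. With the replicate number as a block, the counts stayed within 1.5 times. Smad3 (0.51, limma adjusted p = 0.0682) and Id1 (1.02, limma adjusted p = 0.0676) against Con at 8 weeks were not called. Replicates 6 and 7 occur only in CAC at 8 weeks. The block therefore fitted each by itself, and neither entered that group's mean. These lost calls cannot be told apart from leaving out both libraries. Title numbers of CAC at 8 weeks have gaps, so equal replicate numbers may not mark a shared batch. Depth limits Fstl3 and Fst most, with medians of 40 and 160 estimated reads per library.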
